A study of Taeniopygia guttata with 10 samples.

Results

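HBEGF and MMP9 encode a growth factor and a matrix protease, and they are the 2 genes of the 18618 in the count tables that are described here. HBEGF (ENSTGUG00000001634) lies on chromosome 13 from 16362185 to 16366170 of the zebra finch genome taeGut3.2.4, and MMP9 (ENSTGUG00000005967) on chromosome 20 from 7507332 to 7509498. They were taken by their identifiers, together with every Methylation Peak and every bisulfite-sequenced CpG of the gene model and the 20 kb on each side, that is 33 of 719917 peaks and 262 of 1074648 CpGs for HBEGF, and 28 peaks and 463 CpGs for MMP9. The study itself drew HBEGF as an example because it changed in these libraries. It followed MMP9 further because MMP9 changed in these libraries and also rose on exon arrays of separate samples, which are not part of this report. The change of either gene here is thus no independent finding.

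The cells were G266, a male diploid line, and ZFTMA, a female tetraploid line, both established from spontaneous non-neuronal zebra finch tumors. Each line was given 1 µM 5-aza-2′-deoxycytidine (AZA) for 72 h, renewed every 24 h, or the solvent DMSO on the same schedule. AZA is a cytidine analogue that is built into DNA and blocks the DNA methyltransferases. RNA-seq was done on 4 libraries, 1 per line and treatment. MethylCap-seq, which captures methylated DNA fragments with a methyl-CpG binding domain, was done on the same 4 conditions and on untreated ZFTMA cells. Reduced representation bisulfite sequencing (RRBS), which reads the methylated share of single CpGs in CpG-rich fragments, was done on untreated ZFTMA cells. The lines serve as the replicates of a treatment, each grown in culture and named as no cell type in the labels. With so few libraries a single gene or peak says little of its own spread. The p-values of the count tests therefore rest largely on spread estimated over all genes or peaks.

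HBEGF (heparin-binding EGF-like growth factor) is made as a membrane-anchored precursor, and its soluble form is cut off the cell surface by metalloproteases. It then binds the EGF receptor and ERBB4 with the help of heparan sulfate chains. MMP9 (gelatinase B) is secreted as an inactive precursor that is activated by other proteases, digests basement membrane collagen and gelatin, and in mammals is held in check by the TIMP inhibitors. These roles are known mainly from mammals.

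Depth was even enough for both genes to be measured in every library. The RNA-seq libraries held between 22306354 and 35075936 fragments counted to genes, the largest being ZFTMA with DMSO. The MethylCap-seq libraries held between 8574525 and 10358829 fragments in peaks without AZA, and 2549052 in G266 and 2722135 in ZFTMA with AZA.

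Both genes were low with DMSO and several times higher with AZA in each line. HBEGF had 45 counts in G266 and 109 in ZFTMA with DMSO, and 364 and 373 with AZA. After scaling for depth these were 52.9, 81.8, 383 and 402 normalized counts. The AZA libraries thus lay close together and above both DMSO libraries. The share of all genes separated in this way is not given here. The mean normalized count was 67.3 ± 20.4 with DMSO and 393 ± 14.0 with AZA (SD, n = 2). The fit over both lines gave a 5.75-fold difference (log2 fold change 2.52, standard error 0.16, adjusted p = 6.00e-55, edgeR quasi-likelihood test with cell line as block and Benjamini-Hochberg adjustment over all genes). This p-value rests largely on spread estimated over all genes and was larger without the block.

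MMP9 started lower and reached its AZA level from fewer reads. It had 12 counts in G266 and 18 in ZFTMA with DMSO, and 97 and 112 with AZA. The normalized counts were 14.1, 13.5, 102 and 121 in the same order. The DMSO libraries were nearly equal, and both AZA libraries again lay above them. The means of 13.8 ± 0.4 and 111 ± 13.3 (SD, n = 2) differed 8.13-fold (log2 fold change 3.02, standard error 0.28, adjusted p = 4.44e-26, same edgeR test). Both genes are thus called higher, as were 27.8% of all genes tested (5183 higher against 3045, or 16.4%, lower). That split moved to 4229 and 4081 with TMM scaling to 6176 and 2301 with total gene counts and to 2361 and 2519 with DESeq2, and both genes passed under each. In bulk libraries, more cells that express a gene and more RNA per cell cannot be told apart.

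Per line, the response of HBEGF was a log2 ratio of 2.86 in G266, with an exact 95% binomial interval from 2.41 to 3.34 that covers counting error only, and 2.30 in ZFTMA (1.99 to 2.62). For MMP9 it was 2.85 in G266 (1.98 to 3.86) and 3.16 in ZFTMA (2.44 to 3.97). The order of the lines was opposite for the genes, and for each gene the intervals of the lines overlapped. The difference between lines in response has no replicates and was not tested.

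**Figure D1:**
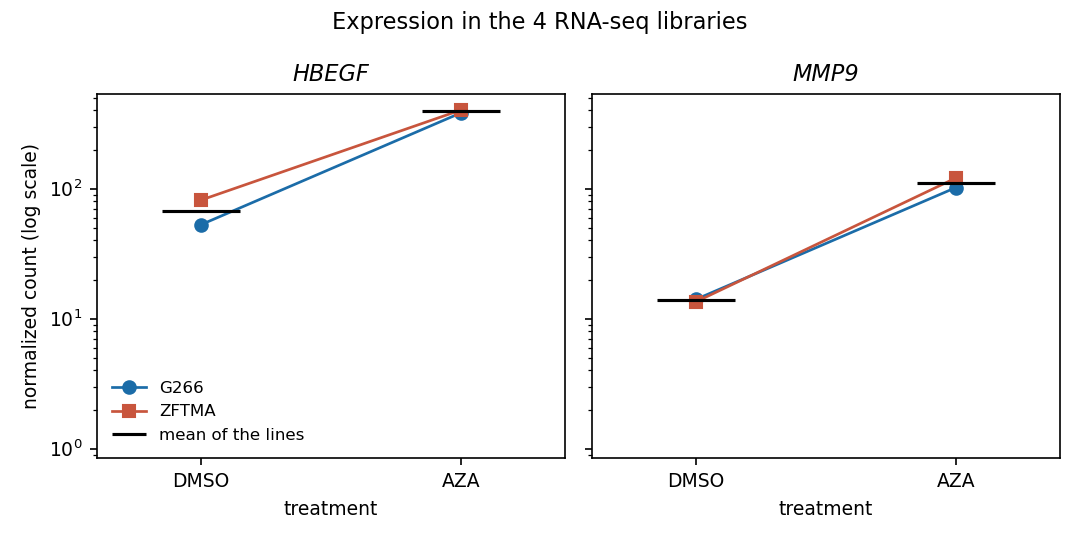
Normalized counts (log axis) of HBEGF and MMP9 in the 4 RNA-seq libraries by treatment, with a line joining the libraries of G266 (circles) or ZFTMA (squares) and a bar at the mean of the lines. HBEGF went from 52.9 and 81.8 to 383 and 402, and MMP9 from 14.1 and 13.5 to 102 and 121.

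The level itself was not told apart between the lines. For HBEGF the fitted ZFTMA minus G266 difference was 0.24 on the log2 scale (standard error 0.15, adjusted p = 0.61, edgeR), and for MMP9 it was 0.19 (standard error 0.25, adjusted p = 0.91, edgeR), where 6.21% of all genes were called between the lines in either direction. For both genes the order of levels was therefore DMSO in either line, then AZA in either line, and with 1 library per line and treatment the lines could not be tested within a treatment. Of 13434 genes that reached 10 counts in 2 or more libraries, 94.2% had a smaller log2 fold change with AZA than HBEGF and 95.7% a smaller one than MMP9. They thus stood in the upper part of the response without being among its extremes.

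The genes whose pattern over the 4 libraries was most like that of HBEGF, by Euclidean distance of centered log2 values among 1435 candidates that carried a symbol and averaged 50 or more normalized counts, were NOTUM (distance 0.13), PLEKHO1 (0.14) and BMPER (0.20). NOTUM, which removes a lipid from Wnt proteins, had 231, 331, 1459 and 1611 normalized counts in G266 and ZFTMA with DMSO and then with AZA, the same small excess of ZFTMA with DMSO as HBEGF. BMPER is a secreted modulator of bone morphogenetic proteins. The nearest to MMP9 were PIK3CD (0.10), a catalytic subunit of phosphoinositide 3-kinase, SEMA5B (0.19), a semaphorin, and DNAH10 (0.21), a dynein heavy chain. PIK3CD had 81.1, 71.3, 554 and 646 normalized counts, flat between the lines with DMSO as MMP9 was. Symbols were known for 2187 genes, from tables the study chose on expression or promoter methylation in these libraries, so the candidates are no neutral sample. With 4 libraries such distances describe likeness only.

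Positions were read for 3176 of the 18618 genes, those in tables the study chose on expression or promoter methylation in these libraries. Neighbours could thus be seen in part because they changed, and other genes of the stretch may be missing. Among genes with a position, HBEGF was not the only one of its stretch that was higher. An uncharacterized gene, ENSTGUG00000001637, lies from 16368119 to 16368567, beyond the high-coordinate end of HBEGF. It had 3 counts in G266 and 10 in ZFTMA with DMSO, and 59 and 33 with AZA (log2 fold change 2.95, standard error 0.42, adjusted p = 2.88e-11, edgeR). Its log2 ratio was 4.14 in G266 (2.52 to 6.46) and 2.25 in ZFTMA (1.19 to 3.43), so that the line with the larger ratio was the same as for HBEGF. On the other side, a prefoldin 1 gene (ENSTGUG00000001632, from 16328841 to 16358319), which encodes a subunit of a chaperone for actin and tubulin, had 1659 and 2662 counts with DMSO and 2335 and 2307 with AZA in G266 and ZFTMA. Its normalized counts rose 1.25-fold (adjusted p = 3.27e-04, edgeR), which did not pass with DESeq2 (adjusted p = 0.14). In the RefSeq annotation of a later assembly (bTaeGut7.mat), HBEGF lies between PFDN1 and SLC4A9, and MMP9 between SLC12A5 and ZNF335. Whether the counting used strand is not given in the sources used here, so reads of a gene and of an overlapping antisense transcript may not have been kept apart.

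Methylation Peaks are stretches in which the summed MethylCap-seq coverage of both DMSO libraries passed a threshold that the authors tuned on the RRBS data. A peak thus exists because coverage was high with DMSO, and a lower count with AZA is partly built into that choice, most of all where fragments are few. The number of peaks called lower is therefore given as a description. The untreated ZFTMA library had no part in the definition of peaks, and its values stand beside the others.

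Over the HBEGF locus, 26 of the 33 peaks were called lower with AZA and none higher (edgeR, false discovery rate 0.1, library size from the reads outside peaks), against 54.6% of all peaks called lower. In that fit none was higher at an unadjusted p under 0.05 either. DESeq2, given the same reads outside peaks as library size, called 24 of the 28 it could test lower and none higher. It is thus no check on that choice. All 17 HBEGF peaks with at least 50 fragments in the 4 libraries were called, as were 99.6% of all peaks of that size. Summed over the 33 peaks, G266 had 1045 fragments with DMSO and 272 with AZA, and ZFTMA had 1296 and 275, against 1637 in untreated ZFTMA cells. Per read outside peaks, 18.4% of the DMSO signal was left in G266 and 8.8% in ZFTMA. Against the untreated library 7.33% was left in ZFTMA. Per non-duplicate read, in peaks or not, 60.7% of the DMSO signal was left in G266 and 42.1% in ZFTMA, so the size of the drop depends on the library size chosen. The median log2 fold change of the 33 peaks was -2.94, and of those with at least 50 fragments -3.13, against -2.98 for all peaks of that size. The HBEGF locus as a whole thus followed the drop seen over the genome.

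Within the HBEGF locus the ends of the gene model differed from each other in G266, and less clearly in ZFTMA. The high-coordinate end, where the study draws the HBEGF promoter, carried a peak from 16366001 to 16366302 that crosses the gene's boundary. In G266 its fragments numbered 29 with DMSO and 3 with AZA, in ZFTMA 32 and 3, and in untreated ZFTMA 41. A further peak, from 16366795 to 16367554, counted 36 fragments with DMSO and 2 with AZA in G266, 29 and 5 in ZFTMA, and 28 in the untreated cells. Few fragments of either peak were left with AZA in either line. The AZA libraries also held fewer non-duplicate reads, so the size of these drops depends on the library size chosen. With all non-duplicate reads as library size both peaks were still called lower (adjusted p = 0.0078 and 0.0084, edgeR). Per read outside peaks their log2 fold changes were -4.20 (standard error 0.58, adjusted p = 1.55e-10) and -4.08 (standard error 0.57, adjusted p = 1.82e-10, edgeR). Of the 124053 peaks with at least 50 fragments, 98.0% and 97.0% dropped less. Such a drop was not particular to this end. The peak from 16381172 to 16381490, away from the gene and named after its values were seen, had -4.24, and 98.2% dropped less. That from 16358588 to 16358887, also named afterwards and with only 23 fragments, had -5.04.

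The low-coordinate end of the HBEGF gene model carried a peak that hardly changed in G266 per read outside peaks. It runs from 16362366 to 16362972, inside the gene model, and counted 18 fragments with DMSO and 24 with AZA in G266, 37 and 14 in ZFTMA, and 42 in the untreated cells. The AZA library of G266 thus lay above its DMSO library, while that of ZFTMA lay below. Per read outside peaks, the log2 ratio was -0.09 in G266 (exact 95% binomial interval from -1.03 to 0.88) and -2.68 in ZFTMA (-3.68 to -1.76). The fit gave -1.40 on the log2 scale (standard error 0.48, adjusted p = 0.0083, edgeR), and only 0.95% of all peaks with at least 50 fragments dropped less. With all non-duplicate reads as library size, under which 12 of the 33 HBEGF peaks and 7.37% of all peaks were called lower, the fold change turned to 0.59 and with TMM to 1.03, neither past the threshold, so no direction is given for this peak.

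The difference between the ends does not depend on the library size, which cancels when peaks of the same libraries are set against each other. In G266, the fragments of the boundary peak fell 12.9-fold more than those of the low-coordinate peak, and in ZFTMA 4.04-fold more. For the peak outside the boundary the corresponding factors were 24.0 and 2.19. These factors rest on 3 and 3 AZA fragments of the boundary peak in G266 and ZFTMA, and 2 and 5 of the outer peak. In G266 the 95% binomial intervals of both log2 ratios (-6.14 to -2.09 and -7.77 to -2.72) lay below that of the low-coordinate peak. In ZFTMA they (-7.04 to -3.02 and -5.54 to -2.43) overlapped with that of the low-coordinate peak (-3.68 to -1.76). Between the ends, the broad peak over the middle of the HBEGF gene model runs from 16363482 to 16365510. It dropped from 82 to 21 fragments in G266 and from 112 to 31 in ZFTMA, with 164 in the untreated cells. At -2.81 on the log2 scale (standard error 0.57, adjusted p = 4.73e-06, edgeR) it lay near the median of all peaks. These differences between peaks have 1 library per line and treatment and were not tested.

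The HBEGF peaks with most fragments lay beyond the high-coordinate end. The largest, from 16370334 to 16372268, dropped from 133 to 32 fragments in G266 and from 230 to 44 in ZFTMA, with 322 in the untreated cells (log2 fold change -3.13, adjusted p = 2.19e-05, edgeR). The next, from 16376838 to 16377974 and from 16378502 to 16380757, had log2 fold changes of -2.64 and -3.09. With all non-duplicate reads these were -0.65, no longer past the threshold (adjusted p = 0.19, edgeR), and -1.10 (adjusted p = 0.0091, edgeR). Only 5 of the 33 HBEGF peaks were single CpGs of 2 bp, and the widest spanned 2256 bp.

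**Figure D2:**
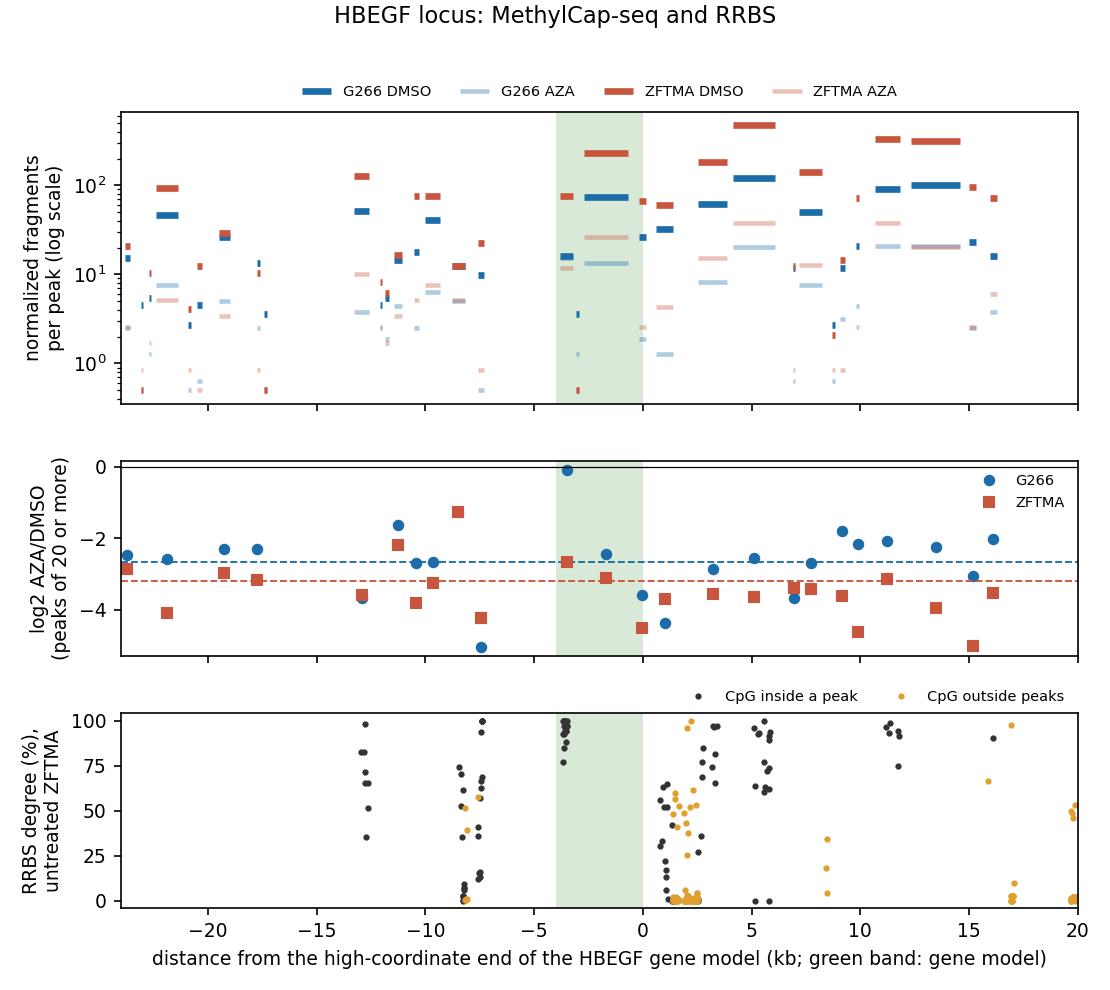
The HBEGF locus by distance in kb from the high-coordinate end of the gene model (green band). Top, normalized fragments per Methylation Peak on a log axis, drawn over the width of the peak, with 0 drawn at 0.5; middle, log2 ratio of AZA to DMSO for peaks with at least 20 fragments, with dashed lines at the median of all peaks with at least 50 fragments (-2.66 in G266 and -3.20 in ZFTMA); bottom, RRBS methylation degree of each CpG in untreated ZFTMA. The G266 point of the peak at the low-coordinate end lies near 0, and the points at the high-coordinate end lie below the dashed lines.

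RRBS gave the methylation of the same stretch before treatment, in ZFTMA only. Over the HBEGF locus the mean degree of the 262 CpGs was 32.2% (SD between CpGs 38.4), below the 51.3% of all 1074648 CpGs, and 150 of the 262 were under 20%. Over pooled reads, which weight deeply covered CpGs more, it was 21.2%. All 23 CpGs covered within the gene model fell in the low-coordinate peak, where the mean was 95.2% (range 76.9 to 100.0%) at a median coverage of 34 reads, or 95.9% of 691 pooled reads (Clopper-Pearson 95% interval 94.2 to 97.3%). At the high-coordinate end, the 59 CpGs in the 2000 bp outside HBEGF had a mean of 13.3%, 44 of them under 20% and none at 80% or more, at a median coverage of 178 reads (10.9% of 13946 pooled reads, interval 10.4 to 11.5%). The ends thus also differed in RRBS degree in ZFTMA, the methylated end being the one whose peak kept more fragments. Of the 59 CpGs only 17 lay in a compared peak, with a mean of 26.7%, and the boundary peak held none. The larger MethylCap-seq contrast was in G266, which has no RRBS library. A link between degree and fragments kept was not tested. Over the 25 peaks of both loci with at least 3 covered CpGs and 20 fragments, Spearman’s rho between mean RRBS degree and log2 fold change was 0.20, a description of points that share libraries and, in part, neighbouring positions.

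Within the low stretch, runs of CpGs near 0 stood beside single CpGs of higher measured degree, the first run starting 1410 bp beyond HBEGF. Such CpGs flanked runs, as 16368498 (61.4%) and 16368633 (53.3%) did on either side of the run from 16368509. They end the runs as defined here and raise the means of the stretch. Whether their values reflect methylation or the library preparation was not tested. The first run, of 12 CpGs from 16367580 to 16367644, had a mean of 0.80% at a median of 361 reads. Further runs of 14 and 12 CpGs from 16368509 had means of 0.54% and 1.39%. The first run lay just outside the peak that ends at 16367554, whose own 17 CpGs had a mean of 26.7% (range 0.0 to 64.7%). The boundary peak itself held no covered CpG. Low runs were also found 16945 bp and 19672 bp beyond HBEGF, and a run of 10 CpGs lay 4294 bp below its low-coordinate end. The uncharacterized gene ENSTGUG00000001637 overlapped the run that starts at 16368509. Inside peaks the mean over the locus was 61.2% (114 CpGs) and outside 9.9% (148 CpGs), a contrast that the tuning of the peak threshold on RRBS had part in.

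Over the MMP9 locus, 25 of the 28 peaks were called lower and none higher, against 54.6% of all peaks called lower. All 17 with at least 50 fragments were among them, as were 99.6% of all peaks of that size. With all non-duplicate reads 14 were called lower, and with TMM none. In the edgeR fit per read outside peaks, none was higher at an unadjusted p under 0.05. With those same library sizes, DESeq2 called 25 of the 26 it could test lower and none higher. The summed fragments were 1716 and 367 in G266 and 2298 and 514 in ZFTMA with DMSO and AZA, and 3199 in untreated ZFTMA. Per read outside peaks, 15.1% of the DMSO signal was left in G266 and 9.2% in ZFTMA, and 7.01% of the untreated signal in ZFTMA. Counted per non-duplicate read, G266 kept 49.9% and ZFTMA 44.4%. The median log2 fold change of the 28 peaks was -3.16, and the MMP9 peaks covered 35798 bp in all against 17772 bp at HBEGF. As at HBEGF, ZFTMA kept less of the signal than G266 under both library sizes, and per read outside peaks this was also so for the medians of all peaks.

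A single broad peak covered the whole MMP9 gene model and both its ends, from 7506916 to 7510507. Its fragments dropped from 191 to 46 in G266 and from 268 to 61 in ZFTMA, with 372 in the untreated cells. Its change of -2.99 on the log2 scale (standard error 0.72, adjusted p = 1.19e-04, edgeR) stood in the middle of all large peaks, 51.0% of which dropped less. The ends of MMP9 could thus not be set against each other. In separate cultures, the study's bisulfite pyrosequencing of CpGs in the MMP9 promoter found lower methylation with AZA in ZFTMA only. Across the genes it assayed, the paper calls the pyrosequencing changes modest, where MethylCap-seq showed a clear drop. It proposes, among other reasons, that DNA damage with AZA may weaken capture and so overstate the loss. The share of fragments left is therefore not read as a share of methylation left. The study's quantitative PCR found MMP9 higher in both lines. Which end holds the MMP9 promoter was not taken from the files, so the neighbouring peaks of both were read.

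Beyond the high-coordinate end of MMP9, the peak from 7510883 to 7511085 dropped from 20 to 3 fragments in G266 and from 19 to 1 in ZFTMA, with 26 in the untreated cells (log2 fold change -4.07, standard error 0.63, adjusted p = 4.25e-09, edgeR). The share of its fragments left was smaller than for the peak over the gene, by a factor of 1.61 in G266 and 4.32 in ZFTMA. These factors rest on 3 and 1 AZA fragments, where counting error is large, and were not tested. Below the low-coordinate end, the small peak between 7506082 and 7506489 dropped from 8 to 2 fragments in G266 and from 10 to 2 in ZFTMA (log2 fold change -3.01), and that between 7504940 and 7505692 from 30 to 8 and from 66 to 16 (-2.94). With all non-duplicate reads neither passed (-1.04, adjusted p = 0.84, and -0.92, adjusted p = 0.16, edgeR), while the peak over the gene did (adjusted p = 0.010, edgeR).

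The MMP9 peaks with most fragments besides the one over the gene lay at 7520923 to 7525282 (log2 fold change -3.31) and 7497447 to 7501501 (-2.84). Next to the latter, a peak of 45 bp from 7501534 to 7501578, named after its values were seen, was the only one of all 61 with a positive fitted log2 fold change. G266 counted 1 fragment with DMSO and 5 with AZA, ZFTMA 3 and 8, and the untreated cells 6 (0.72, standard error 0.97, adjusted p = 0.51, edgeR; 2.71 and adjusted p = 0.103 with all non-duplicate reads). It was thus not distinguishable from no change at this depth.

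**Figure D3:**
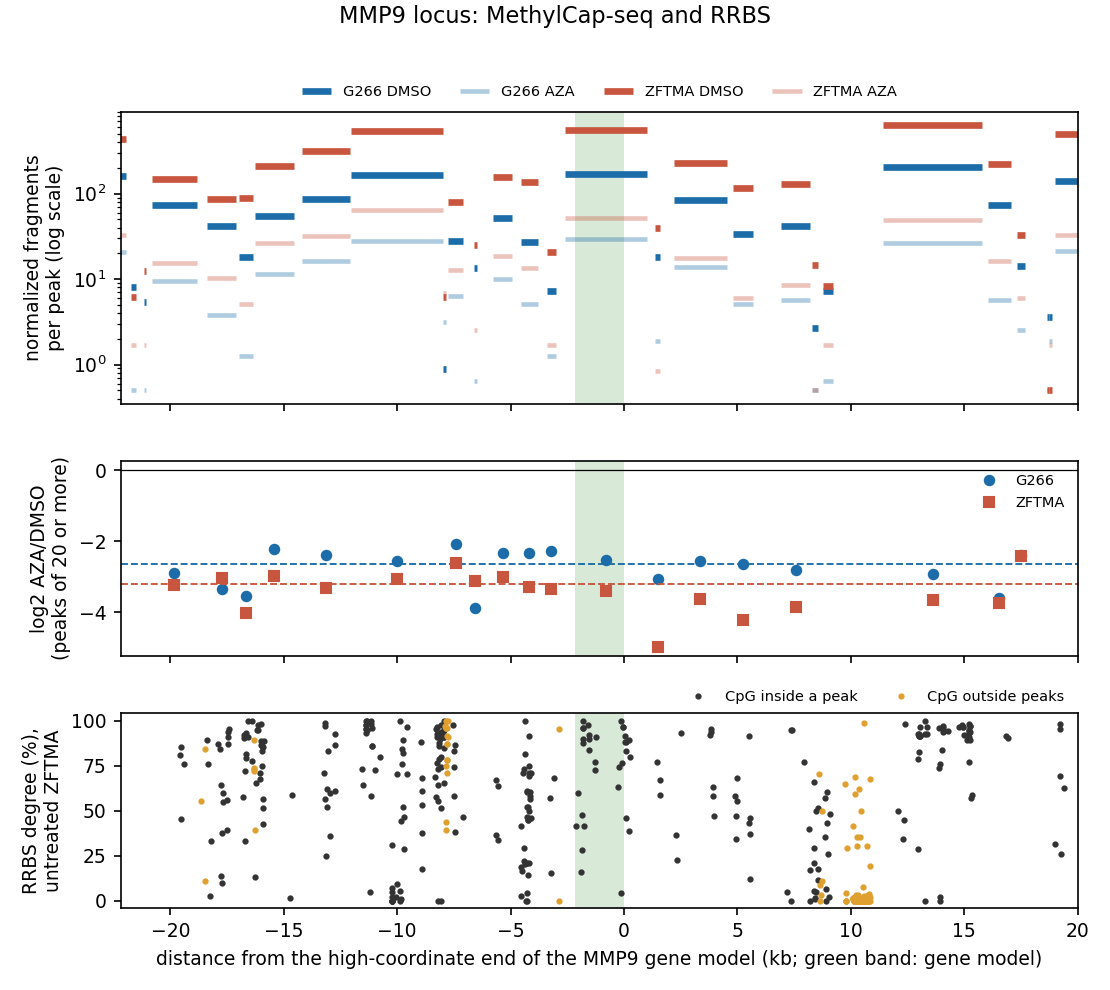
The MMP9 locus drawn as for HBEGF: distance in kb from the high-coordinate end of the gene model (green band), normalized fragments per peak on a log axis with 0 drawn at 0.5 (top), log2 ratio of AZA to DMSO for peaks with at least 20 fragments (middle, dashed lines at -2.66 for G266 and -3.20 for ZFTMA) and RRBS degree per CpG in untreated ZFTMA (bottom). One broad peak spans the gene model, and the longest runs of CpGs near 0% lie from 10095 bp beyond it, with shorter ones inside peaks.

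In RRBS the MMP9 gene model was methylated before treatment. Its 25 covered CpGs had a mean degree of 72.7% (SD 28.0), 13 of them at 80% or more, at a median coverage of 76 reads, or 77.1% of 1791 pooled reads (interval 75.1 to 79.0%). The window from 2000 bp outside to 500 bp inside the gene had a mean of 58.6% at the low-coordinate end (21 CpGs) and 73.2% at the high-coordinate end (18 CpGs). Among the covered CpGs of these windows, neither end of MMP9 thus showed a low run such as the first one beyond HBEGF. Parts of the windows held no covered CpG, so RRBS cannot exclude such a stretch there. Just outside the low-coordinate window, the CpGs at 7505177 and 7505203 had 0.0% and 4.0%. Over the whole locus the mean of the 463 CpGs was 52.1%, near that of all CpGs.

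Runs of at least 10 neighbouring CpGs under 20% lay away from the MMP9 gene, between 7519593 and 7520335, where 5 runs of 11 to 14 CpGs had means between 0.27% and 2.22%. Single CpGs of higher measured degree lay between them, such as 7519861 (62.0%). No peak overlapped these runs, while shorter low stretches lay inside peaks, such as that from 7497447 to 7501501. The largest peak of the locus began at 7520923, beyond them, and its 48 CpGs had a mean of 80.4%. Inside the MMP9 peaks the mean was 63.4% (336 CpGs) and outside 22.2% (127 CpGs).

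**Figure D4:**
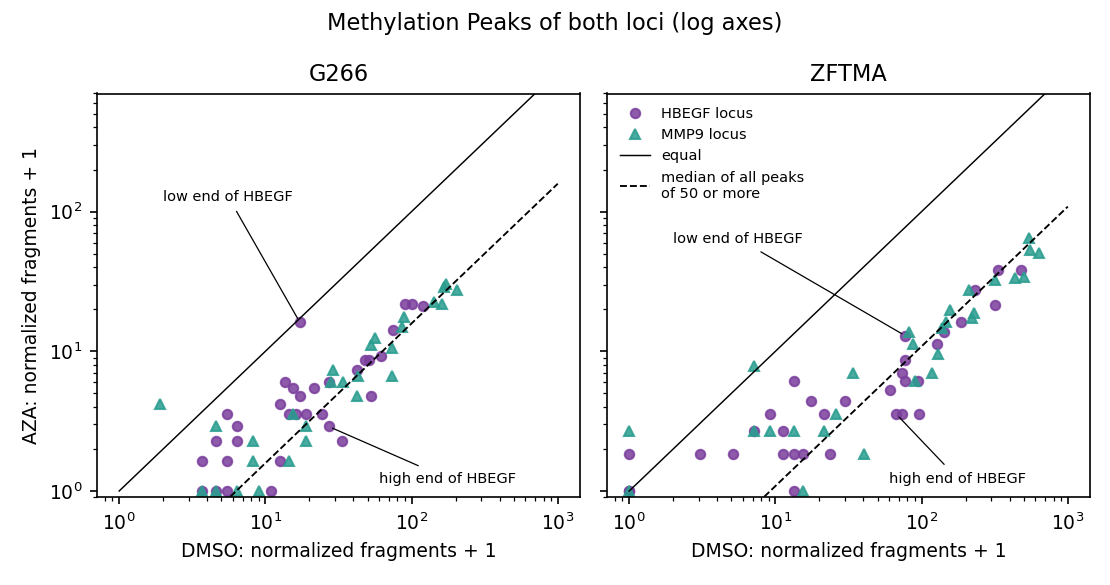
Normalized MethylCap-seq fragments plus 1 of every peak of the HBEGF (circles) and MMP9 (triangles) loci with DMSO (x axis) and AZA (y axis), on log axes, in G266 (left) and ZFTMA (right). The solid line marks equal values and the dashed line the median ratio of all peaks with at least 50 fragments; the HBEGF peak at the low-coordinate end (18 and 24 fragments in G266) lies near the solid line in G266, and that at the high-coordinate end (29 and 3) below the dashed line.

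Between the lines, most peaks of either locus were not called. At HBEGF 3 of 33 and at MMP9 3 of 28 were called, all higher in ZFTMA. Of all peaks, 3.69% were called in either direction, 26467 of them higher in ZFTMA and 117 lower. With all non-duplicate reads 1 HBEGF peak and 3 MMP9 peaks were called, against 1.09% of all peaks. At MMP9, a pair of peaks was called under both sizes. The peak from 7493231 to 7494932, named after its values were seen, had a ZFTMA minus G266 log2 difference of 1.63 (adjusted p = 0.089) and 1.06 (adjusted p = 0.062, edgeR), and that from 7504940 to 7505692 had 2.01 (adjusted p = 0.028) and 1.41 (adjusted p = 0.030, edgeR). None of the peaks at the ends of HBEGF, and not the peak over MMP9, was called between the lines. ZFTMA DMSO had fewer reads outside peaks per fragment in peaks than G266 DMSO, and the lines differ in ploidy. The part of either in these values was not tested.

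The untreated and the DMSO library of ZFTMA gave like pictures of both genes. Per read outside peaks, the untreated sum was 1.19 times the DMSO sum over the HBEGF locus, 1.29 times within its gene model, and 1.32 times over the MMP9 locus. These are single libraries, and their difference has no replicate check.

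EGF-family and matrix genes were read beside the members from lists of 132 symbols, of which 42 could be paired with an identifier through the study's tables. Below, a listed gene is called measured where it could be paired. The others may have counts but were not analysed. Of the 42, 26 were called higher and 10 lower, with a median log2 fold change of 0.84, where the median over all genes was 0.07. The pairing is not neutral: 28 of the 42 stood in tables the study chose on expression in these libraries (23 higher, 5 lower), and among the other 14, 3 were higher and 5 lower. The shares are therefore no evidence on the pathways.

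Among the other EGF-family ligands, 4 of 7 were called higher and 1 lower, against 27.8% and 16.4% of all genes, and 5 of the 7 came from the tables chosen on expression. BTC (betacellulin), which like HBEGF binds the EGF receptor and ERBB4, had 49 and 123 counts with DMSO and 294 and 328 with AZA in G266 and ZFTMA (log2 fold change 2.13, adjusted p = 7.30e-39, edgeR). NRG2, a neuregulin, had 48 and 97, then 227 and 215 (1.85), and EREG (epiregulin) 52 and 58, then 127 and 90 (1.14). EGF itself went from 1 and 0 counts to 13 and 21, a log2 ratio of the sums of 5.31 with a counting interval from 2.73 to 10.7. NRG3 fell from 5 and 12 counts to 1 and 1 (log2 fold change -2.67, adjusted p = 0.046, edgeR), which did not pass with DESeq2 (adjusted p = 0.30). NRG1 and EPGN (epigen), the most abundant and the third of the list, had log2 fold changes of -0.08 and 0.04 and did not pass. HBEGF thus had a larger log2 fold change than each of these 7 ligands except EGF, where 10 other ligands were listed.

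Around HBEGF's release and uptake, ADAM9, a metalloprotease of the cell surface that can cut HBEGF, was lower (log2 fold change -0.33, adjusted p = 0.0018, edgeR), and RHBDF1, an inactive rhomboid that guides such a protease to the surface, was higher (0.89). Of the heparan sulfate proteoglycans, GPC4 was lower (-0.71) and GPC3 higher (1.18), while SDC3 had 13 counts in all 4 libraries and did not pass. The 4 measured feedback inhibitors of receptor signalling, of 15 listed, were all called higher, against 27.8% of all genes. They were ERRFI1 (1.00), which binds the EGF receptor, SPRED2 (0.69), DUSP1 (0.80), a phosphatase of MAP kinases, and SPRY1 (0.89). All 4 came from the tables chosen on expression. PTGS2, an inducible prostaglandin synthase, was higher at 1.45. The ERBB receptors were not analysed here.

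Of 20 other matrix metallopeptidases listed, only 2 were measured, and neither was higher. MMP13, a collagenase, had 1124 and 2794 counts with DMSO and 990 and 1393 with AZA and was lower (log2 fold change -0.42, adjusted p = 1.05e-05, edgeR), and MMP24, a membrane-type enzyme, had -0.19 (adjusted p = 0.15, edgeR). Without the cell line as block MMP13 did not pass (adjusted p = 0.25). MMP9 was thus the only one of the 3 that was called higher. Of 12 genes listed under inhibitors, 4 were measured, all of the serpin family: SERPINF1 (2.90), SERPINF2 (2.71), SERPINB1 (1.87) and SERPINB5 (1.37). Whether each of them inhibits a protease, or acts on MMP9, was not tested. All 4 were called higher, against 27.8% of all genes, again from tables chosen on expression. TIMP genes were not analysed here.

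Of the 10 other proteases, 6 were called higher and 2 lower, against 27.8% and 16.4% of all genes, and 6 of the 10 came from the tables chosen on expression. PLAT, the tissue plasminogen activator, was higher at 0.99, CTSD (cathepsin D) at 0.53, ADAMTS7 at 0.60, and ADAMTS2, which trims procollagen, at 2.48. ADAMTS8 was higher at 3.64. ADAMTS15 had 0 and 2 counts with DMSO and 72 and 59 with AZA, a log2 ratio of the sums of 6.25 (counting interval 4.37 to 9.31). ADAMTS6 (-1.94) and ADAMTS12 (-1.41) were the ones that were lower. CTSB (cathepsin B), at -0.06, and ADAMTS19, at -0.48, did not pass.

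Of 19 listed collagens, elastin and laminins, the substrates and neighbours of such proteases, 9 were measured. Among these, 5 were higher and 4 lower, against 27.8% and 16.4% of all genes. Of the 9, 6 came from the tables chosen on expression. COL4A1, a chain of the basement membrane collagen that MMP9 digests, was higher at 1.94, and COL4A6, COL6A2 and COL7A1 at 0.62, 0.94 and 2.14. LAMC3 was higher on 3 counts with DMSO and 13 with AZA. COL1A2 (-1.07), COL8A1 (-2.86), COL6A1 (-0.30) and ELN (-0.66) were lower, of which COL6A1 did not pass without the block (adjusted p = 0.11). The matrix genes thus moved in both directions beside MMP9.

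**Figure D5:**
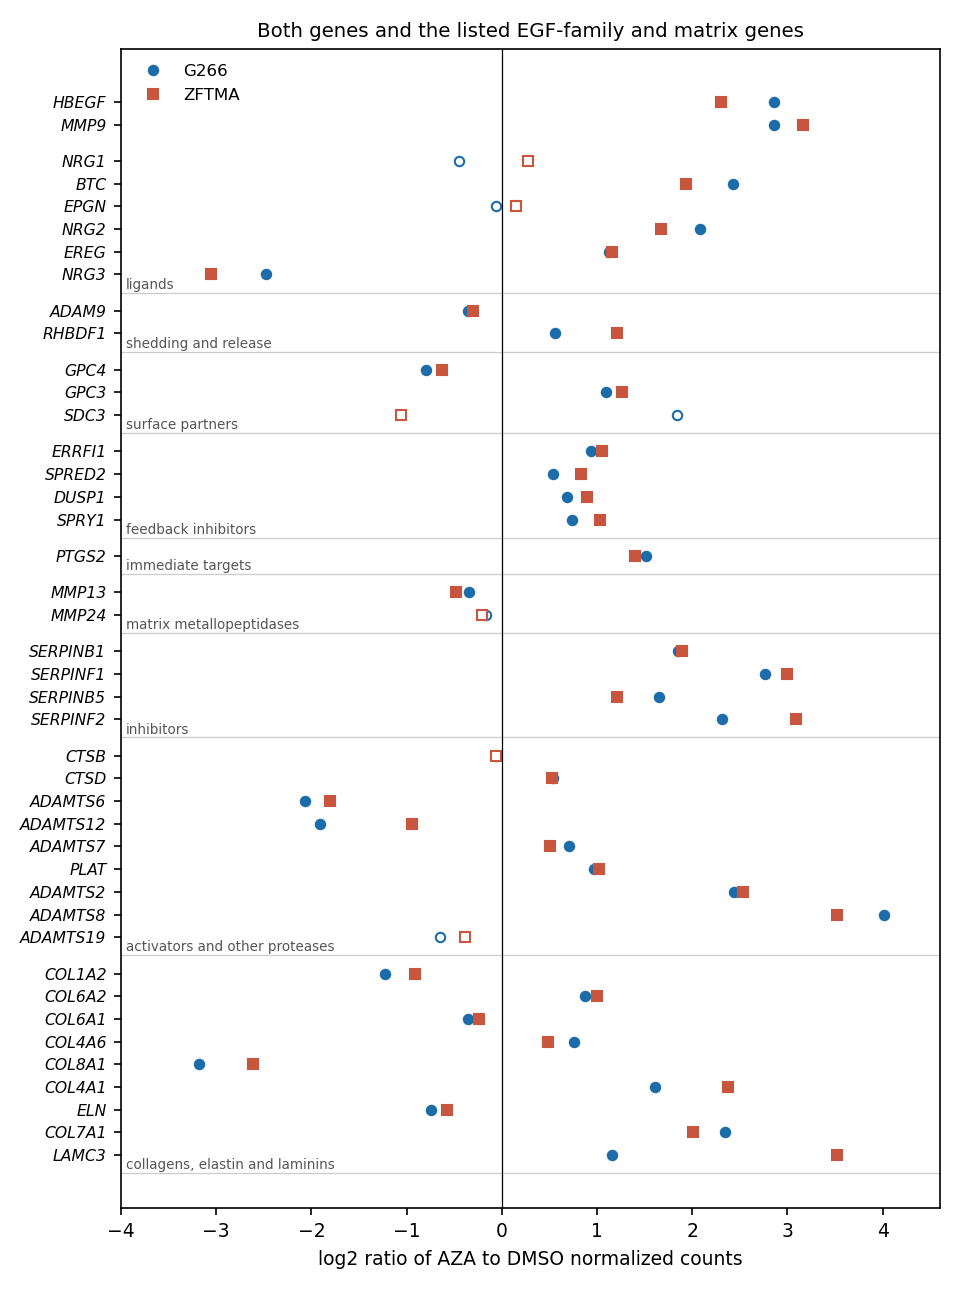
Log2 ratio of AZA to DMSO normalized counts in G266 (circles) and ZFTMA (squares) for HBEGF, MMP9 and the measured listed genes by role, filled where the fit over both lines passed the false discovery rate of 0.1; EGF and ADAMTS15, with 0 counts in a DMSO library, are left out. HBEGF (2.86 and 2.30) and MMP9 (2.85 and 3.16) lie, within each line, right of the other ligands and metallopeptidases shown.

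MMP9 is also a gene of leukocytes and HBEGF of epithelia, so markers of those cells were read as well. Of 8 measured genes listed as leukocyte markers, 4 of them from the tables chosen on expression, 5 were called higher, against 27.8% of all genes. The summed normalized count of the 8 was 219.8 and 252 with DMSO and 611 and 627 with AZA in G266 and ZFTMA. CSF1R, the receptor of macrophage growth factor, made up much of it, with 92 and 124 counts with DMSO and 294 and 286 with AZA, and CD93 went from 1 and 1 to 96 and 114. CD34, CD96 and CSF3 did not pass, CSF3 with 0 counts with DMSO and 2 with AZA, and the defining marker PTPRC was not analysed here. Of 8 listed epithelial markers only 2, EPCAM and ITGB4, could be paired with an identifier, and EPCAM came from the tables chosen on expression. Both were called higher, against 27.8% of all genes. They summed to 44.7 and 36.0 with DMSO and 1190 and 920 with AZA, most of it EPCAM. These sums were higher with AZA in both lines, as HBEGF and MMP9 were, and their part in the result was not tested.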

How the data were processed

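The authors mapped RNA-seq read pairs with STAR 2.3.0 (up to 10 places per fragment) and deposited counts per Ensembl release 72 gene. They mapped MethylCap-seq pairs with Bowtie2 2.1.0, removed duplicates and deposited fragment counts per Methylation Peak. For RRBS, mapped with Bismark 0.9.0, the deposited values are coverage counts and the methylation degree in percent, for CpGs with at least 10 reads.

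Counts were tested with edgeR 4.0.16 (R 4.3.3; quasi-likelihood, cell line as block, false discovery rate 0.1, Benjamini-Hochberg over all genes or peaks). Library scaling followed the authors' approach: PoissonSeq depth (own implementation) for RNA, and reads outside peaks, from the study's mapping summary, for MethylCap-seq. At the same false discovery rate the study itself called fewer genes higher, and far fewer genes and peaks lower. The shares of all genes and peaks given here are those of the present fits, and the study's own calls give smaller ones. Same-numbered libraries are the same cell line, and their deviations correlated (0.25). Standard errors are the log2 fold change over the root of F. DESeq2 1.42.0 was an alternative, with its own size factors for RNA and the same reads outside peaks for MethylCap-seq. The code was tested on simulated data in which few features changed, with fragments in peaks as library size for MethylCap-seq. That test does not bear on a drop over most peaks or on the library size chosen. Intervals cover counting error only. Members and lists were chosen with earlier results of these data known. Named were both members, overlapping genes, up to 4 listed genes per role by mean count (and those behind counts of 5 or fewer), 3 most alike genes each, peaks with at least 20 fragments within 2000 bp outside or 500 bp inside a gene end, and the 3 peaks per locus with most fragments. EREG, ADAMTS2, ADAMTS7, ADAMTS8, PLAT, COL4A1 and COL7A1, the peak over the middle of HBEGF and further low CpG runs were named after their values were seen. Runs are 10 or more neighbouring CpGs under 20%, with gaps of at most 500 bp.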

Additional observations from a re-analysis of the deposited data

Results flagged for a closer look

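Libraries of G266 and ZFTMA moved in opposite directions with AZA at a pair of peaks and in 4 other genes, and these differences between lines were not tested. At HBEGF, the single-CpG peak at 16343084 counted 5 fragments with DMSO and 0 with AZA in G266, and 0 and 1 in ZFTMA, 6 in all. At MMP9, that at 7528241 counted 4 and 3 in G266, and 0 and 2 in ZFTMA, 9 in all. The HBEGF peak at the low-coordinate end is not among them, since its G266 ratio lay just below 0 per read outside peaks.

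On the log2 scale, EPGN with AZA stood at -0.058 relative to DMSO in G266 and at 0.15 in ZFTMA. The corresponding values were -0.45 and 0.27 for NRG1, 1.84 and -1.06 for SDC3, and 0.41 and -0.57 for CD96. HBEGF and MMP9 moved the same way in both lines.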

How the results depend on the processing

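HBEGF and MMP9 remained higher with AZA past the threshold in each of 9 alternative fits, of which 4 left 1 library in a group and assume that it varies like the others. For HBEGF the log2 fold change ranged from 2.26 to 2.89 and for MMP9 from 2.88 to 3.12, the extremes being fits that left out 1 library. Without the cell line block the adjusted p was 3.72e-04 for HBEGF and 3.83e-04 for MMP9. Leaving out a line left 2.84 (G266) and 2.29 (ZFTMA) for HBEGF and 2.80 and 3.13 for MMP9. The cell line effect on either gene passed in no alternative.

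The counts over all features moved more. DESeq2 called 2361 genes higher, against 5183, and leaving out 1 library without the block gave 3312 (G266 DMSO), 3463 (G266 AZA), 2592 (ZFTMA DMSO) and 3534 (ZFTMA AZA) higher and, in the same order, 1357, 1773, 1221 and 1899 lower, against 3045. For peaks called lower (392812), all non-duplicate reads gave 53025 and TMM 148. For peaks called higher (12), these gave 735 and 359, no replicate block 6 and DESeq2 3. Between the lines, peaks higher in ZFTMA (26467) became 7615 with all non-duplicate reads and 41695 among peaks with at least 10 counts, and those lower (117) became 225 and 291. At HBEGF the 26 peaks called lower became 12 with all non-duplicate reads and 0 with TMM, and at MMP9 the 25 became 14 and 0. No locus peak was called under TMM, and at an unadjusted p under 0.05 5 HBEGF and 4 MMP9 peaks were lower and 1 at each locus higher, with 8 and 3 log2 fold changes above 0. With all non-duplicate reads 1 MMP9 peak and no HBEGF peak was higher at that level. TMM centers the ratios of all peaks by its construction, so a drop common to all peaks cannot be seen under it.

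The HBEGF peak at 16362366 was the only one of 13 named peaks to change sign, to 1.03 with TMM and 0.59 with all non-duplicate reads. The mean RRBS degree was 30.3% at a minimum of 30 reads and 21.2% over pooled reads at HBEGF, and 50.8% and 50.5% at MMP9. The median log2 fold change of genes with at least 10 counts was 0.07, moving to -0.03 with TMM and 0.16 with total counts. Of 50 other named genes 5 changed sign, none of which had passed. EPGN was at -0.056 with TMM, -0.046 with DESeq2, and -0.078 and -0.17 with a library left out. NRG1 was at 0.0073 with total counts, and 0.13 and 0.053 with a library left out. SDC3 was at -0.050 with TMM, and -0.48 and -0.52 with a library left out. CTSB was at 0.027 with total counts, and 0.062 and 0.077 with a library left out. CD96 was at 0.21 and 0.094 with a library left out.

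Depth limits what can be said of 16 HBEGF and 11 MMP9 peaks with under 50 fragments, of which 9 and 8 were called.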
